A study of Rattus norvegicus with 82 samples.

Results

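Homeobox genes encode transcription factors that bind DNA through a conserved homeodomain. The set described here holds the genes whose symbols in the platform's annotation begin with the family names Hoxa to Hoxd, Lhx, Irx, Dlx, Nkx, Pax, Pou, Meis, Pbx, Otx or Satb, or with Isl or the prefix of Six3 followed by a digit, each represented by the probe set with the highest mean. The rule found 80 genes among the 14217 named genes of the array, with 99 probe sets in all. In 73 the symbol is that of a homeobox family, and 7 share only the first letters (Hoxa11-as, Paxbp1, Paxip1, Paxx, Pbxip1, Pou2af1 and Pou2af3); some of the Pax proteins counted among the 73 have a paired domain and little or no homeodomain. Total RNA of rat brain had been hybridised to 82 arrays from 7 dissected regions: frontal cortex, septum, amygdala, hippocampus, hypothalamus, dorsal raphe and locus coeruleus.

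Each label gives a time of day, AM or PM, and 1 of 3 treatments: Sham, ADX or pADX. ADX is the usual abbreviation for adrenalectomy, the removal of the adrenal glands; the labels do not spell it out and do not explain the p of pADX. Strain, sex and age, and whether an array stands for a single animal or a pool, were not stated in the sources used here, so p-values measure only the spread between these arrays. The 80 arrays with a treatment and a time formed 41 groups of 2 arrays, apart from the Sham AM and ADX AM groups of the frontal cortex with 1 each. By region this gave 12 arrays each for the septum, amygdala, hypothalamus, dorsal raphe and locus coeruleus and 10 each for the frontal cortex and hippocampus. Another 2 frontal cortex arrays carry no treatment and entered no test.

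During development, homeobox genes divide the neural tube into territories along its length and from its back to its belly side, and adult neurons often keep part of that pattern. Lhx2 and the Dlx genes act in the forebrain, Nkx2-1 and Six6 in the hypothalamus, the Irx genes from the thalamus backward, and the Hox genes in the hindbrain and spinal cord. Meis and Pbx proteins are partners that bind DNA together with Hox and other homeodomain proteins. The question for these genes was how their RNA differed among the 7 regions, and whether it differed with treatment or time of day.

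Signals were quantile normalized and are given on the log2 scale, where the lowest value allowed, the floor, is 4. Where the lower group had arrays at the floor, the fold is only a minimum and is written "at least". The number of arrays limits the precision. The region and interaction fits share a single estimate of spread per probe set over all regions. Regions held at the floor show no spread and lower that estimate. For genes at the floor in some regions, standard errors and p-values can therefore be too small. Deposited scaling differed between regions: the frontal cortex, septum and amygdala arrays shared 1 trimmed mean, none of the hippocampus or hypothalamus did, and 2 of 12 dorsal raphe and 7 of 12 locus coeruleus arrays did. Frontal cortex Sham PM replicate 2 stood somewhat apart, with a correlation of 0.974 to the rest of its region. The source name of several regions disagrees with the title and description, from which region was taken, and both hippocampus pADX arrays are labelled PM.

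Some markers of the labelled regions were highest there and others were not. Slc6a4, the serotonin transporter, averaged 10.66 in the dorsal raphe and also 9.61 in the locus coeruleus, against at most 4.15 elsewhere. Dbh, which makes noradrenaline, averaged 8.34 in the locus coeruleus and at most 4.20 elsewhere. On average the locus coeruleus arrays thus carried markers of both nuclei. Of the other noradrenaline markers, Th averaged 8.74 in the locus coeruleus, 8.77 in the hypothalamus and 8.54 in the dorsal raphe. Slc6a2 averaged 4.56 in the locus coeruleus. The summed signal of 4 noradrenaline markers ran from 279.5 to 2074 in the locus coeruleus. It overlapped the dorsal raphe (271.9 to 825.9) and the hypothalamus (242.6 to 782.6). Of the septal markers, Zic1 was highest in the septum (6.13), Trpc4 averaged 7.42 there and 7.40 in the hippocampus, and Prlr averaged 5.46 there, below 5 other regions. Avp, the vasopressin gene, averaged 11.17 in the hypothalamus and 7.40 in the amygdala, while Pomc was at the floor in every hypothalamic array. Cga, the alpha subunit of pituitary glycoprotein hormones, averaged 9.20 in the hypothalamus, and the choroid plexus gene Ttr averaged 11.75 in the amygdala and 12.34 in the hippocampus. In tissue of this kind, fewer cells of a type and less RNA per cell cannot be told apart.

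The homeobox set was dim. In all, 55.5% of its values lay at the floor, against 27.5% over all probe sets. Of the 80 genes, 12 were at the floor in every array, 15 rose above it in 1 to 9 arrays, 38 in 10 to 79 arrays and 15 in all 80 arrays. Region means differed for 43 of the 80 genes (53.8%) by limma's moderated F test, against 65.3% of all 31042 probe sets tested, so regional differences were no more frequent in this set than on the array as a whole. Of the 73 homeobox genes, 39 passed. A gene was called highest in a region when it passed the F test and its mean there exceeded that of every other region by at least 1 log2 unit. By that rule 5 of the 80 genes (6.25%) were highest in a single region, against 0.734% of all probe sets: Irx4 in the locus coeruleus, Nkx2-1 and Six6 in the hypothalamus, Pou4f1 in the dorsal raphe and Meis2 in the septum. None was highest in the frontal cortex, amygdala or hippocampus. Meis2 was also the only gene of the set called lowest in a single region, the hypothalamus, by 1.61 log2 units (1.25% of the set, against 0.148% of all probe sets). The margins of Pou4f1 (1.04) and Meis2 (1.02) lay just inside the rule and that of Otx2 in the dorsal raphe (0.94) just outside it. With frontal cortex Sham PM replicate 2 left out, 4 genes were called highest, without Meis2, and with all ADX PM replicate 1 arrays left out 3, Irx4, Nkx2-1 and Six6.

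**Figure D1:**
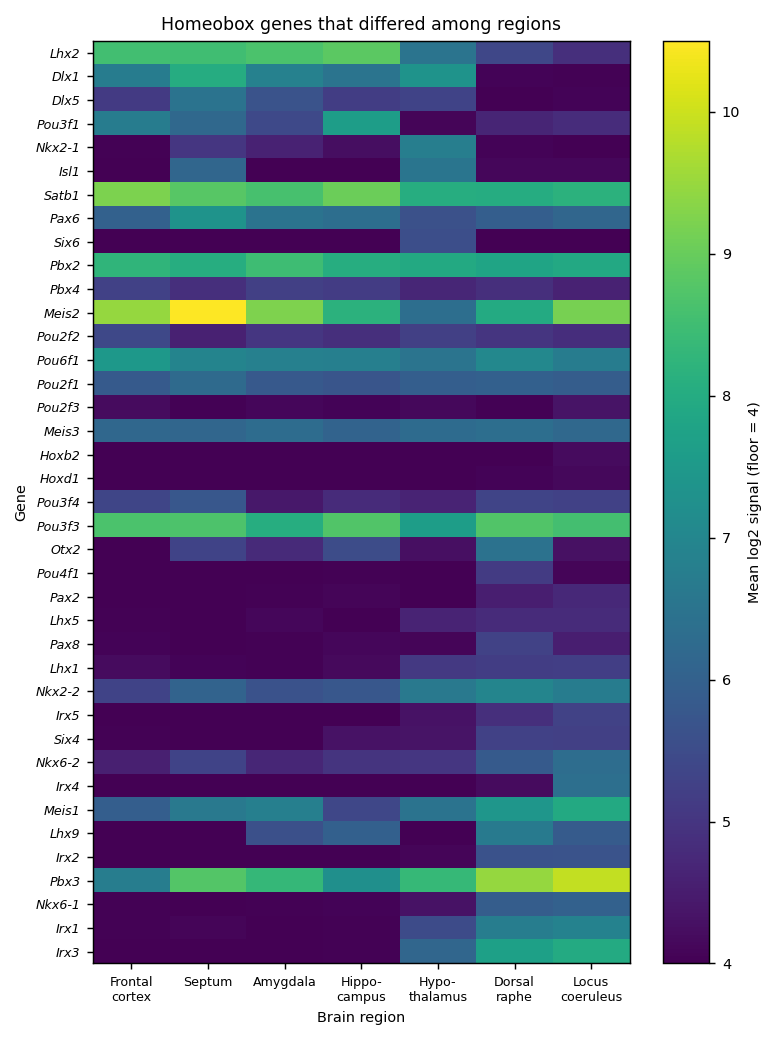
Mean log2 signal (colour, floor at 4) of the 39 homeobox genes that passed the F test, by brain region (columns, 10 or 12 arrays each); genes are sorted by their difference between brainstem and forebrain. Colours compare regions within a row, not genes with one another, since probe sets differ in brightness; the lower rows brighten toward the dorsal raphe and locus coeruleus, and Lhx2 and Dlx1 at the top dim there.

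Lhx2, a LIM homeobox gene that specifies the cerebral cortex, was a gene of the 4 telencephalic regions (probe set 1371094_at). Its lowest, median and highest values were 8.35, 8.46 and 8.88 in the frontal cortex, 8.35, 8.52 and 8.80 in the septum, 8.23, 8.72 and 8.93 in the amygdala, and 8.52, 8.87 and 9.15 in the hippocampus. In the hypothalamus they were 5.71, 6.58 and 6.86, in the dorsal raphe 4.05, 5.43 and 5.97, and in the locus coeruleus 4.0, 4.99 and 5.87. Every telencephalic array was thus above every array of the other 3 regions, the 4 telencephalic regions overlapped one another, and the hypothalamus overlapped the 2 brainstem regions only at its lowest array. The brainstem mean was at least 8.50-fold lower than the mean of the 5 forebrain regions (log2 difference -3.09, SE 0.08, adjusted p = 2.18e-42), and the hypothalamus was 4.39-fold lower than the telencephalon (log2 difference -2.14, SE 0.11, adjusted p = 1.63e-26).

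Dlx1 and Dlx5, which drive the formation of GABA neurons in the ventral forebrain, covered all 5 forebrain regions. Dlx1 (probe set 1392064_at) was highest in the septum, with 7.51, 8.03 and 8.39 as its lowest, median and highest values, and the hypothalamus followed with 6.82, 7.38 and 7.64. It ranged from 6.20 to 7.06 over the frontal cortex, amygdala and hippocampus, and from the floor to 4.39 in the brainstem, where 18 of 24 arrays were at the floor. No forebrain array overlapped a brainstem array. Dlx1 was at least 8.21-fold lower in the brainstem (log2 difference -3.04, SE 0.04, adjusted p = 4.78e-61), and in the hypothalamus it was 1.24-fold above the telencephalic mean (adjusted p = 2.97e-07). Dlx5 averaged 6.47 (SD 0.29, n = 12) in the septum and from 5.10 to 5.66 in the other forebrain regions, and was at the floor in all dorsal raphe arrays and in 9 of 12 of the locus coeruleus. Dlx3, the remaining Dlx gene on the array, better known from skin and teeth, ranged from the floor to 5.62 and did not pass the F test (adjusted p = 0.306). In the limma contrast of hypothalamus against telencephalon it was lower in the hypothalamus (log2 difference -0.35, adjusted p = 0.0376).

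Pou3f1, a POU gene of cortical neurons and myelinating glia, had its highest mean in the hippocampus, followed by the frontal cortex, septum and amygdala (probe set 1370432_at). In order, the lowest, median and highest values were 7.17, 7.59 and 8.03 in the hippocampus, 6.16, 6.73 and 7.41 in the frontal cortex, 5.52, 6.28 and 7.01 in the septum, and 4.62, 5.50 and 5.91 in the amygdala. It reached 5.26 at most in the brainstem and 4.39 in the hypothalamus, where 7 of 12 arrays were at the floor. The hippocampus and frontal cortex overlapped slightly, the frontal cortex and septum over much of their range, and no hypothalamic array reached the lowest telencephalic one. The hypothalamus was at least 5.28-fold below the telencephalon (log2 difference -2.40, SE 0.10, adjusted p = 5.81e-31), and the brainstem mean was 2.42-fold below the forebrain mean (adjusted p = 1.7e-23), a fold that includes the 7 hypothalamic arrays set to the floor.

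Satb1, a chromatin organiser of cortical and other neurons and the only Satb gene on the array, showed the same side with a smaller difference. It averaged 9.22 (SD 0.19, n = 10) in the frontal cortex and 9.05 (SD 0.21, n = 10) in the hippocampus, and 8.03 to 8.18 in the hypothalamus and the 2 brainstem regions. The brainstem was 1.56-fold below the forebrain (adjusted p = 1.48e-21), and a second Satb1 probe set gave a log2 difference of -0.60 beside -0.64 for the brighter one. Pax6, the paired gene of eye and forebrain development, was 7.35 (SD 0.20, n = 12) in the septum, and its lowest septal array, at 7.04, was above every array of the other regions. Its difference between brainstem and forebrain, -0.33 (adjusted p = 5e-05), was -0.68 among arrays at the common scale and 0.14 among the others. The former include the septum but no hippocampus or hypothalamus, and the latter no frontal cortex, septum or amygdala.

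Meis2, a partner of Hox and Pax proteins that marks the developing striatum, had the widest range of region means in the set, 4.14 log2 units (probe set 1389728_at). Its lowest, median and highest values were 10.17, 10.51 and 10.81 in the septum, 8.99, 9.49 and 9.72 in the frontal cortex, 8.90, 9.32 and 9.46 in the amygdala, 8.96, 9.15 and 9.38 in the locus coeruleus, 7.75, 8.29 and 8.36 in the hippocampus, 7.54, 7.97 and 8.29 in the dorsal raphe, and 5.63, 6.42 and 6.88 in the hypothalamus. The septum lay above and the hypothalamus below every array of the other regions, the frontal cortex, amygdala and locus coeruleus overlapped, and so did the hippocampus and dorsal raphe. The hypothalamus was 7.98-fold below the telencephalon (log2 difference -3.00, SE 0.07, adjusted p = 6.65e-45). Because the low region is in the forebrain, the brainstem contrast of Meis2 was small, -0.19 (adjusted p = 0.0023), and it was -1.14 against the frontal cortex, septum and amygdala at the common scale and 1.28 against the hippocampus and hypothalamus in the other arrays. Markers of striatal neurons also differed by region. The summed signal of 5 measured striatal markers ran from 561.7 to 2608 in the septum and reached at most 692.4 in any other region. Drd1 and Adora2a are among them, and so is Drd2, which averaged 6.61 in the septum, 6.44 in the dorsal raphe and 6.34 in the locus coeruleus. All 5 markers were above the floor in every septal array. Their part in the septal levels of Meis2, Dlx1, Dlx5, Pax6 and Isl1 was not tested.

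Against the telencephalon, 16 genes of the set were higher in the hypothalamus (20%, against 23.2% of all probe sets) and 14 lower (17.5%, against 18.4%). Both shares were near those of the array. Nkx2-1, the gene required to form the ventral hypothalamus, Six6, a gene of the hypothalamus, pituitary and retina, and Isl1, a LIM homeobox gene of hypothalamic, striatal and motor neurons, are described first; Irx3, which was also higher in the hypothalamus, is described with the other Irx genes. The stretches upstream of Nkx2-1 and Six6 follow, 250 bases before the annotated gene start from RefSeq on assembly GRCr8, 5′ to 3′ on the gene's strand, shown because both genes were called highest in the hypothalamus; capitals mark CG dinucleotides.
Nkx2-1 (chr6:79734868-79735117, minus strand): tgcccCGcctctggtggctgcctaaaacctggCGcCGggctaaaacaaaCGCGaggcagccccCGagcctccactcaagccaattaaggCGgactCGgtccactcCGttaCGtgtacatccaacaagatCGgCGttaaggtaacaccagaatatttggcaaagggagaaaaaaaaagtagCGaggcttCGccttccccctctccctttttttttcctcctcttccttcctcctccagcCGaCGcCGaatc
Six6 (chr6:97370185-97370434, plus strand): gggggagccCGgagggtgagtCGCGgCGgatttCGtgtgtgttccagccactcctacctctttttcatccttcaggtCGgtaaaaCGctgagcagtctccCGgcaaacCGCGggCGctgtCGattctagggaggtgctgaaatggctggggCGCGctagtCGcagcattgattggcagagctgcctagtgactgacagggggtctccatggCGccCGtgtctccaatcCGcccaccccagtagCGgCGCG
The Nkx2-1 stretch holds 17 CG dinucleotides at 55.2% G and C, and that of Six6 holds 21 at 62.8%. Promoter sequences matched 49 of the 73 homeobox genes. Their median was 17 CG dinucleotides, against 6 over all 27457 promoters of that length, and 62% G and C against 52%. The homeodomain core TAATTA, searched on both strands, was found in 2.04% of the 49 and 4.94% of all promoters, and TGACAG, the core bound by Meis proteins, in 20.4% and 15.6%. Six6 has 1 TGACAG match and Nkx2-1 none; these are letter matches only.

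Nkx2-1 (probe set 1371010_at) had lowest, median and highest values of 6.22, 6.79 and 7.05 in the hypothalamus, 4.14, 4.99 and 5.78 in the septum, and 4.0, 4.59 and 5.37 in the amygdala. It reached 4.66 at most in the hippocampus, 4.47 in the dorsal raphe, 4.41 in the frontal cortex and 4.09 in the locus coeruleus. Every hypothalamic array was above all others, and the hypothalamic mean was 1.75 log2 units above that of the septum. It was at least 4.93-fold above the telencephalic mean (log2 difference 2.30, SE 0.09, adjusted p = 1.99e-32). The sum of 7 hypothalamic neuron markers was 8378 to 12540 in the hypothalamus, 183.5 to 2116 in the amygdala and at most 287.9 elsewhere; its part in the amygdala values of Nkx2-1 was not tested.

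Six6 (probe set 1382687_at) was 4.90, 5.58 and 6.04 at its lowest, median and highest in the hypothalamus. Outside it, all but 2 of 68 arrays were at the floor, and the highest, in the hippocampus, was 4.25. The groups did not overlap, and Six6 was at least 2.97-fold above the telencephalic mean (log2 difference 1.57, SE 0.04, adjusted p = 9.78e-41). Six4, which acts in muscle, kidney and sensory placodes, had another pattern, with means of 5.26 (SD 0.31, n = 12) in the dorsal raphe and 5.23 (SD 0.26, n = 12) in the locus coeruleus and at most 4.35 elsewhere. Six5 reached 5.38 in single arrays with no difference among regions (adjusted p = 0.353), and Six3, the forebrain relative of Six6, was at the floor in all 80 arrays.

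Isl1 (probe set 1369681_at) joined 2 regions: its lowest, median and highest values were 5.80, 6.52 and 6.91 in the hypothalamus and 5.54, 6.15 and 6.67 in the septum. It was at the floor in every array of the frontal cortex, amygdala and hippocampus and in 15 of 24 brainstem arrays, whose highest value was 4.67. The hypothalamus and septum overlapped, and neither overlapped any other region. The hypothalamus was at least 3.93-fold above the telencephalic mean (log2 difference 1.98, SE 0.06, adjusted p = 4.42e-38). A second Isl1 probe set was at the floor in all 80 arrays. Isl2, its relative of motor and sensory neurons, was above the floor in 25 of 80 arrays, up to 4.99, and did not pass the F test (adjusted p = 0.254).

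Pituitary genes were measured in the same hypothalamic arrays. The sum of 5 pituitary markers ran from 96.35 to 2303 in the hypothalamus and reached at most 140.1 elsewhere; Cga averaged 9.20 and Tshb 5.21 there, while Gh1 averaged 4.25 and Prl was at the floor. Pou1f1, which turns on growth hormone, prolactin and thyrotropin genes in the anterior pituitary, was at the floor in all 80 arrays with both of its probe sets, and so was Lhx4, another pituitary LIM gene. The part of pituitary tissue in the Six6 signal was not tested.

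Toward the brainstem, 23 genes of the set were higher in the mean of the dorsal raphe and locus coeruleus than in the mean of the 5 forebrain regions (28.8%, against 26.1% of all probe sets), and 13 were lower (16.2%, against 22.9%). The median difference was 0.00 in the set and 0.00 over all probe sets. All 23 higher genes were homeobox genes, and 5 of 5 Irx genes on the array were among them. The largest differences were those of Irx3, Irx1, Nkx6-1, Pbx3 and Irx2. The largest in the other direction were Lhx2, Dlx1, Dlx5, Pou3f1 and Nkx2-1. These 10 genes kept their direction and their call under every alternative setting tried.

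**Figure D2:**
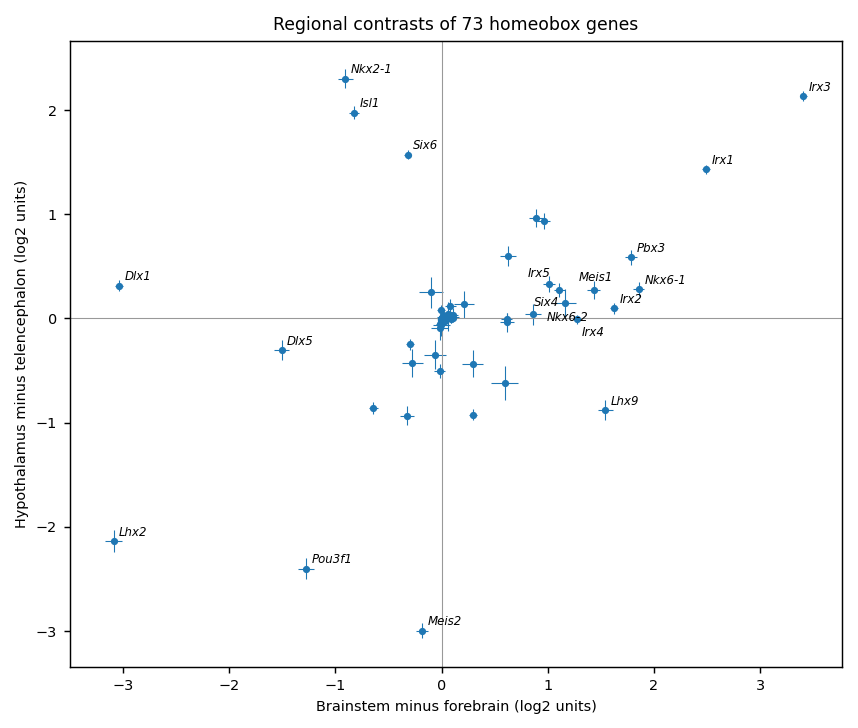
Differences of the 73 homeobox genes between brainstem and forebrain (horizontal, log2 units) and between hypothalamus and telencephalon (vertical, log2 units), with standard errors from the limma fit. Irx3 and Irx1 lie high on both axes, Nkx2-1, Isl1 and Six6 high on the vertical axis alone, Lhx2 and Pou3f1 low on both, and Dlx1 low on the horizontal axis; genes under 1 log2 unit on both axes carry no name.

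The Irx genes encode Iroquois factors of the diencephalon, midbrain and hindbrain and stand in clusters in the genome. In the RefSeq gene table of GRCr8, Irx4, Irx2 and Irx1 are on chromosome 1 and Irx5 and Irx3 on chromosome 19. The 250 bases before the gene start are shown for Irx3 and Irx4, the Irx genes that differed most in their regional pattern, as for the hypothalamic genes above with CG in capitals.
Irx3 (chr19:31384868-31385117, plus strand): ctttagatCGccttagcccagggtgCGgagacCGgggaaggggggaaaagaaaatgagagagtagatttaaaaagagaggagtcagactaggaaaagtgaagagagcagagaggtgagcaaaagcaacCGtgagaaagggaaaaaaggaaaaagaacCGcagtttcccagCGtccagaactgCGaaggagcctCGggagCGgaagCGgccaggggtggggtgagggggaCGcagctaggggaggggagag
Irx4 (chr1:31868090-31868339, minus strand): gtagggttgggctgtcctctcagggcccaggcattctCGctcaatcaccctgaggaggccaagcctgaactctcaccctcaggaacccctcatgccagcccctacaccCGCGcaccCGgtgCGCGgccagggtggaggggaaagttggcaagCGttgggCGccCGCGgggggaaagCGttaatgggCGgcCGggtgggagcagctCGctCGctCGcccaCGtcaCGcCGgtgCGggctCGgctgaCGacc
Irx3 has 11 CG dinucleotides here and Irx4 has 22, and neither stretch holds TAATTA or TGACAG. Irx1 and Irx2 have 23 each in theirs. Irx5 was not matched to a promoter.

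Irx3 (probe set 1390776_at) rose in steps from telencephalon to hypothalamus to brainstem. The lowest, median and highest array gave 5.66, 6.12 and 6.51 in the hypothalamus, 7.42, 7.70 and 8.0 in the dorsal raphe and 7.68, 8.04 and 8.14 in the locus coeruleus, while the telencephalon reached 4.25 at most, with 41 of 44 arrays at the floor. The telencephalon, hypothalamus and brainstem did not overlap, and the 2 brainstem regions did. Irx3 was at least 10.6-fold higher in the brainstem than in the forebrain (log2 difference 3.41, SE 0.04, adjusted p = 1.17e-65) and at least 4.38-fold higher in the hypothalamus than in the telencephalon (adjusted p = 3.25e-46). A second probe set of Irx3 gave the same order at lower values, with means of 4.50, 5.96 and 6.30, and another was near the floor.

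Irx1 (probe set 1384312_at) had the same order of regions. Its lowest, median and highest values were 5.10, 5.47 and 5.71 in the hypothalamus, 6.56, 6.72 and 7.0 in the dorsal raphe and 6.51, 6.90 and 7.10 in the locus coeruleus, and it reached 4.45 at most in the telencephalon. It was at least 5.62-fold higher in the brainstem (log2 difference 2.49, SE 0.03, adjusted p = 2.28e-58). Irx2 (probe set 1391457_a_at) was at the floor in every telencephalic array and reached only 4.50 in the hypothalamus. Its brainstem values were 5.27, 5.62 and 6.03 in the dorsal raphe and 5.14, 5.70 and 6.12 in the locus coeruleus, with no overlap with the forebrain. Irx5 (probe set 1386823_at) was also at the floor in the whole telencephalon, and its values of up to 5.26 in the hypothalamus, 5.54 in the dorsal raphe and 5.92 in the locus coeruleus overlapped.

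Irx4 (probe set 1392981_at) had the largest difference between the brainstem regions among the 5 Irx genes. In the locus coeruleus its lowest, median and highest values were 6.11, 6.38 and 6.69, and in the dorsal raphe 4.0, 4.07 and 4.79. All arrays of the amygdala, hippocampus and hypothalamus were at the floor, and the highest of the frontal cortex and septum was 4.27. The locus coeruleus did not overlap any region, and its mean was 2.19 log2 units, at least 4.55-fold, above the dorsal raphe (SE 0.05, adjusted p = 1.12e-42). Irx3 and Irx5 were also higher in the locus coeruleus, with dorsal raphe minus locus coeruleus differences of -0.28 (adjusted p = 0.00107) and -0.40 (adjusted p = 0.00636). For Irx1 and Irx2 these were -0.13 (adjusted p = 0.218) and -0.02 (adjusted p = 1). A further probe set each of Irx1 and Irx4 was at the floor in all 80 arrays. A second Irx5 probe set had region means of 4.03 to 4.25 and did not pass the F test (adjusted p = 0.237).

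**Figure D3:**
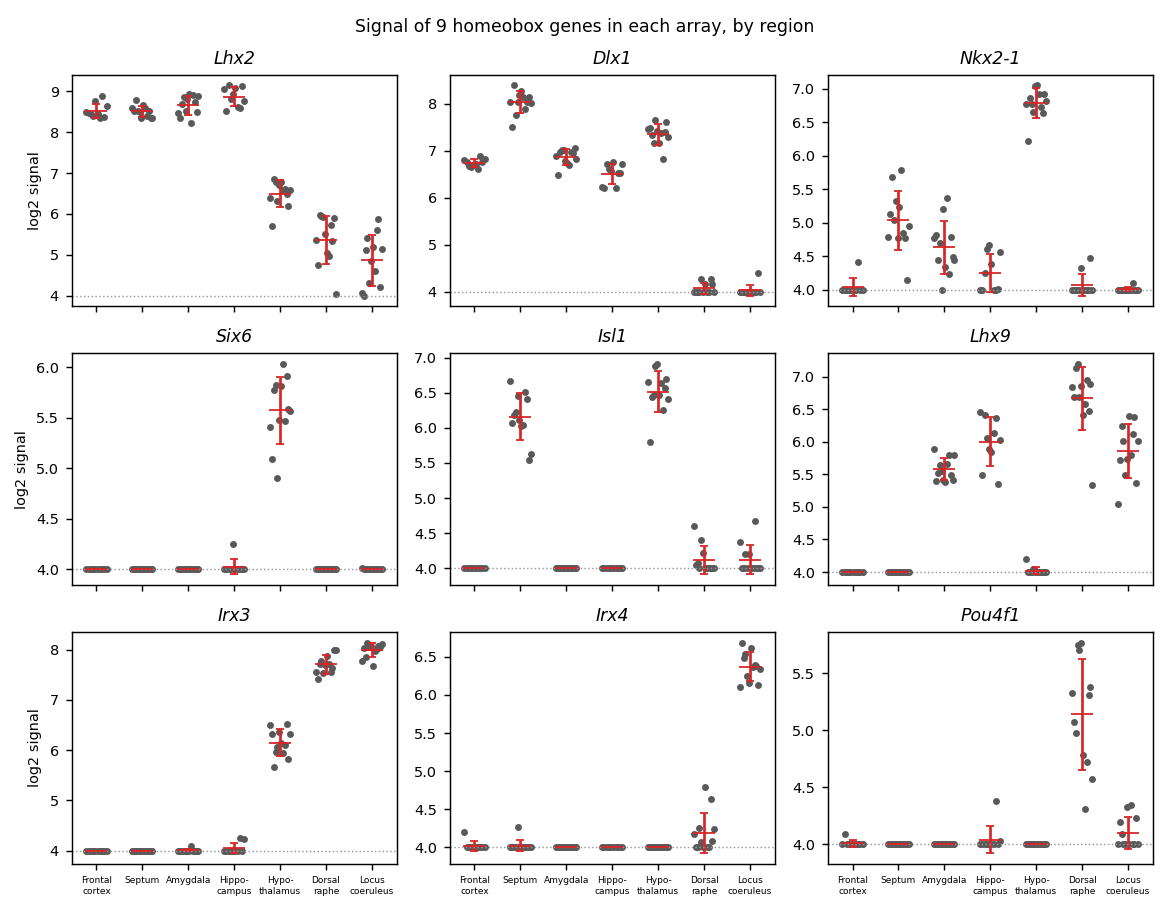
Log2 signal of 9 homeobox genes in each of the 80 arrays, by region; each point is an array, red bars give mean and SD (n = 10 in frontal cortex and hippocampus, 12 elsewhere), and the dotted line is the floor at 4. Lhx2 is high in the telencephalon, Dlx1 in the whole forebrain, Nkx2-1 and Six6 in the hypothalamus, and Isl1 in septum and hypothalamus. Irx3 is high in hypothalamus and brainstem, Irx4 in the locus coeruleus and Pou4f1 in the dorsal raphe.

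Nkx6-1, which specifies ventral hindbrain and motor neurons, was a brainstem gene with means of 5.91 (SD 0.35, n = 12) in the dorsal raphe and 6.01 (SD 0.23, n = 12) in the locus coeruleus. The lowest brainstem array, at 5.33, was above the highest forebrain array, at 4.69, and the difference was at least 3.62-fold (log2 1.86, SE 0.05, adjusted p = 3.85e-41). Nkx2-2, a gene of the ventral neural tube and of the oligodendrocyte lineage, and Nkx6-2, which also acts in that lineage, were graded. Nkx2-2 averaged 5.31 in the frontal cortex, 6.63 in the hypothalamus and 6.96 and 6.72 in the dorsal raphe and locus coeruleus, and Nkx6-2 averaged 4.56 in the frontal cortex, 5.84 in the dorsal raphe and 6.32 in the locus coeruleus. The summed signal of 7 oligodendrocyte markers also differed by region, at 7310 to 11250 in the frontal cortex, 8071 to 12100 in the amygdala, 14650 to 17500 in the septum, 15140 to 17790 in the hippocampus, 14260 to 16480 in the hypothalamus, 16820 to 21710 in the dorsal raphe and 18620 to 21600 in the locus coeruleus. In the hippocampus and hypothalamus the median sum was 16350 and 15590. Nkx2-2 averaged 5.77 and 6.63 in these regions, and Nkx6-2 averaged 4.969 and 5.035. The part of oligodendrocytes in the Nkx2-2 and Nkx6-2 values was not tested. Nkx2-3 and Nkx2-5, known from gut and heart, were above the floor in 3 and 24 arrays and did not differ by region beyond the threshold (adjusted p = 0.554 and 0.115).

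Pbx3 and Meis1, cofactors that pair with Hox proteins, were present everywhere and highest in the locus coeruleus. Pbx3 (probe set 1374503_at) had lowest, median and highest values of 9.69, 9.83 and 10.48 there, 9.16, 9.40 and 9.87 in the dorsal raphe, 8.36, 8.78 and 9.19 in the septum, 8.06, 8.38 and 8.74 in the hypothalamus, 8.12, 8.29 and 8.57 in the amygdala, 6.75, 7.19 and 7.95 in the hippocampus and 6.55, 6.72 and 7.04 in the frontal cortex. The 2 brainstem regions overlapped each other, the dorsal raphe touched only the septum among forebrain regions, and the hippocampus and frontal cortex lay below all other regions. Pbx3 was 3.45-fold higher in the brainstem (log2 difference 1.79, SE 0.06, adjusted p = 3.21e-38). Meis1 averaged 7.95 (SD 0.17, n = 12) in the locus coeruleus, 7.41 (SD 0.10, n = 12) in the dorsal raphe and 5.39 (SD 0.39, n = 10) in the hippocampus, and it was 2.69-fold higher in the brainstem (adjusted p = 2.04e-30).

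Lhx1, Lhx5 and Lhx9 were higher in the brainstem, unlike Lhx2. Lhx1, which acts in the hypothalamic clock nucleus, the hindbrain and the cerebellum, averaged 5.08 (SD 0.33, n = 12) in the hypothalamus, 5.17 (SD 0.24, n = 12) in the dorsal raphe and 5.21 (SD 0.36, n = 12) in the locus coeruleus, and 4.03 to 4.18 in the telencephalon. Lhx5, its close relative, was fainter, with means of 4.65, 4.79 and 4.79 in those 3 regions and at most 4.11 in the telencephalon. A second Lhx5 probe set averaged 4.40, 4.19 and 4.31 in the hypothalamus, dorsal raphe and locus coeruleus. With a floor of 32, Lhx5 lost its call between hypothalamus and telencephalon (log2 difference 0.03, limma adjusted p = 0.697). Lhx9, a relative of Lhx2, divided the brain differently (probe set 1385034_at). Its lowest, median and highest values were 5.34, 6.76 and 7.20 in the dorsal raphe, 5.04, 5.90 and 6.40 in the locus coeruleus, 5.36, 6.05 and 6.46 in the hippocampus and 5.38, 5.54 and 5.89 in the amygdala, and the frontal cortex and septum were at the floor in every array, the hypothalamus in 10 of 12. Its 4 regions with signal overlapped one another and lay above the other 3. Lhx9 was at least 2.91-fold higher in the brainstem than in the forebrain (adjusted p = 9.79e-29).

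Between the 2 brainstem regions, 6 genes of the set were higher in the dorsal raphe (7.5%, against 3.13% of all probe sets) and 9 in the locus coeruleus (11.2%, against 3.37%). The first group held Otx2, Pou4f1, Lhx9, Pax8, Lhx2 and Pou6f1, and the second Irx4, Meis2, Meis1, Pbx3, Irx5, Paxx, Pou2f3, Irx3 and Hoxb2. A second Pou6f1 probe set averaged 4.05 in the dorsal raphe and 4.17 in the locus coeruleus. It did not pass the F test (adjusted p = 0.457). A second Pou2f3 probe set was at the floor in all 80 arrays. Otx2, which sets the boundary between midbrain and hindbrain in the embryo (probe set 1375465_at), had lowest, median and highest values of 5.97, 6.46 and 6.92 in the dorsal raphe and 4.0, 4.11 and 4.86 in the locus coeruleus. These did not overlap, and the dorsal raphe was at least 4.44-fold higher (log2 difference 2.15, SE 0.21, adjusted p = 3.07e-12). Otx2 also varied widely within the telencephalon, from 4.52 to 6.58 in the septum, the floor to 6.19 in the amygdala and the floor to 6.51 in the hippocampus, and it was at the floor in the whole frontal cortex. Choroid plexus, which expresses Otx2, differed by region too: the sum of 4 of its markers was 100.6 to 173.8 in the dorsal raphe, 132.9 to 3975 in the locus coeruleus, 99.54 to 6424 in the septum, 248.1 to 7645 in the amygdala 1540 to 7187 in the hippocampus, 100.4 to 728 in the hypothalamus and 83.79 to 281.5 in the frontal cortex. Its part in the Otx2 values was not tested. A second Otx2 probe set had region means of 4.0 to 4.07 and did not pass the F test (adjusted p = 0.704). Otx1 was above the floor in 15 arrays, up to 4.79, with no difference among regions (adjusted p = 0.821).

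Pou4f1, known as Brn3a and expressed in sensory, habenular and midbrain neurons (probe set 1378409_at), had lowest, median and highest values of 4.31, 5.19 and 5.77 in the dorsal raphe and 4.0, 4.0 and 4.35 in the locus coeruleus. It was at the floor in all arrays of the septum, amygdala and hypothalamus, and the highest array of the frontal cortex and hippocampus was 4.38. The dorsal raphe overlapped the others only at its lowest array. It was at least 2.06-fold above the locus coeruleus (log2 difference 1.04, SE 0.08, adjusted p = 9.96e-16). Pax8 averaged 5.28 (SD 0.42, n = 12) in the dorsal raphe and 4.55 (SD 0.61, n = 12) in the locus coeruleus, with overlap (adjusted p = 3.83e-05). A second Pax8 probe set had region means of at most 4.07 and did not pass the F test (adjusted p = 0.721). Pax2, a relative of Pax8 that acts with it at the midbrain and hindbrain border, averaged 4.53 (SD 0.47, n = 12) and 4.75 (SD 0.47, n = 12) (adjusted p = 0.289). Lhx2 lost its call between these regions, adjusted p = 0.0146, in 5 settings, among them a higher floor (adjusted p = 0.0764) and the fit without ADX PM replicate 1 (adjusted p = 0.0707). Serotonin markers were high in both regions, 2406 to 5981 summed over 4 genes in the dorsal raphe and 1760 to 3450 in the locus coeruleus, and their part in these differences was not tested.

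The 23 Hox genes, whose order along each chromosome matches their order of action from hindbrain to tail, gave little signal. Hoxa9, Hoxb13, Hoxc5, Hoxc8 and Hoxc9 were at the floor in all 80 arrays. Another 12 were above it in 1 to 9 arrays, and 6 in 10 or more. In the Hoxa cluster, Hoxa10, Hoxa3l1 and Hoxa5 were above the floor in 1 array each, Hoxa7 in 2 and Hoxa11 in 10, with 4.51 as the highest value of the cluster. In the Hoxb cluster, Hoxb7 was above it in 1 array, Hoxb2 in 3, Hoxb4 in 4, Hoxb6 in 12 and Hoxb3 in 66. In the Hoxc cluster, only Hoxc4 left the floor, in 7 arrays with 5.16 as its highest. In the Hoxd cluster, Hoxd4 and Hoxd10 did so in 5 arrays each, Hoxd3 in 8, Hoxd9 in 9, Hoxd8 in 10, Hoxd1 in 11 and Hoxd11 in 52.

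Hoxb3 and Hoxd11, the Hox probe sets that were often above the floor, showed no region beyond the threshold (F test adjusted p = 0.488 and 1), and their region means ran from 4.43 to 4.81 and from 4.24 to 4.40. Hoxb2, Hoxb4 and Hoxd1, whose genes are expressed in the embryonic hindbrain, were the Hox genes higher in the brainstem. Hoxb2 was at the floor in all arrays but 3 of the locus coeruleus, where it reached 5.02 (F test adjusted p = 0.0157). Hoxd1 was above the floor in 5 dorsal raphe and 6 locus coeruleus arrays and in no forebrain array, up to 4.67 (F test adjusted p = 0.00213). Hoxb4 was above the floor in 1 dorsal raphe and 3 locus coeruleus arrays, up to 5.10, and passed the brainstem contrast (log2 difference 0.09, adjusted p = 0.0254) but not the F test (adjusted p = 0.0733). No Hox gene was called highest in a region. Isolated signal this close to the floor is shown as measured, with no bound on the RNA below it.

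At the other end, the 5 genes with the smallest range of region means among those above 6 in every region were Meis3, Paxip1, Paxx, Pbx2 and Paxbp1. Meis3 ranged over 0.27 log2 units, from 6.07 in the hippocampus to 6.34 in the dorsal raphe, Paxip1 over 0.30, Paxx over 0.59, Pbx2 over 0.69 and Paxbp1 over 0.74. All 5 passed the F test all the same (adjusted p from 7.14e-15 for Pbx2 to 0.0383 for Meis3). Only Meis3 and Pbx2 among them are homeobox genes, and both belong to the cofactor group.

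A further list held 84 genes, nearly all of them homeobox genes outside the families above, and 50 were measured. Of the 50, 27 differed among regions (65.3% of all probe sets did), 14 were higher in the brainstem (26.1% of all) and 8 lower (22.9%), and 3 were highest in a single region (0.734%). These 3 were Phox2a, the determinant of noradrenergic neurons, in the locus coeruleus (mean 5.52), Cux2, a gene of upper cortical layers, in the frontal cortex (7.43) and Prox1, a gene of dentate granule cells, in the hippocampus (8.77). En2, the midbrain and hindbrain engrailed gene, averaged 7.51 in the dorsal raphe and 6.81 in the locus coeruleus and at most 4.07 in the forebrain. Shox2 averaged 8.12 and 7.38 in the same regions and 5.62 in the hippocampus. Of 5 cerebellar markers, Gabra6 averaged 4.931 in the dorsal raphe and 4.563 in the locus coeruleus, and at most 4.002 elsewhere. Pcp2 averaged 5.88 and 5.73 in these regions and at most 5.21 elsewhere. Cbln1, Calb1 and Zic2 were highest in the hypothalamus. The sum of the 5 was 619.7 to 2656 in the dorsal raphe (median 782.9) and 1969 to 2193 in the hypothalamus. The part of cerebellar tissue in the En2, Lhx1, Lhx5 and Pax2 values was not tested. Emx1 and Emx2, genes of the embryonic cortex, averaged 6.09 in the frontal cortex and 6.34 in the hippocampus as their highest regions. Arid5a and Phtf1 on the list are not established homeobox genes, and Phtf1 is counted among the 27 and the 14.

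No gene of the set passed the test for treatment or time of day. Treatment and time were tested on 12 units, each the mean of the 5 regions with 12 arrays, 4 units per treatment and 6 per time. After adjustment over all probe sets, 0 of 80 genes passed for ADX against Sham (0.132% of all probe sets passed), 0 for pADX against Sham (0.00644%), 0 for ADX against pADX (0.0483%) and 0 for PM against AM (0.00966%). At an unadjusted limma p under 0.05, 10, 6, 5 and 4 of the 80 genes were counted, or 12.5%, 7.5%, 6.25% and 5%, against 9.02%, 7.7%, 8.02% and 10.4% of all probe sets. The 3 treatment comparisons share units with one another.

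Pbx3 had the smallest adjusted p for ADX against Sham. Its 4 ADX units ran from 9.02 to 9.14 and its 4 Sham units from 8.80 to 8.93, without overlap, and the log2 difference was 0.20 (SE 0.04, adjusted p = 0.168). Pou6f1 had a difference of -0.12 (SE 0.03, adjusted p = 0.327) for ADX against Sham and -0.16 (SE 0.03, adjusted p = 0.374) for pADX against Sham. Meis1 was 0.17 (adjusted p = 0.464) for pADX against Sham. For ADX against pADX the smallest were Hoxd11 at 0.14 (adjusted p = 0.420) and Dlx3 at 0.29 (adjusted p = 0.441), and for PM against AM Pbxip1 at -0.21 (adjusted p = 0.369) and Paxip1 at -0.09 (adjusted p = 0.379). The largest ADX difference of any gene was that of Lhx2, -0.35 (SE 0.15, adjusted p = 0.554). Without normalization between arrays, 23 genes passed for ADX against Sham (28.8%, against 44.2% of all probe sets), 4 for ADX against pADX (5%, against 11.5%), and 18 of 560 tests within regions (3.21%, against 5.77%). In that setting the median ADX difference of all probe sets was -0.21, Pbx3 changed sign, to -0.10, and Pou6f1 was -0.40 (adjusted p = 0.00177).

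**Figure D4:**
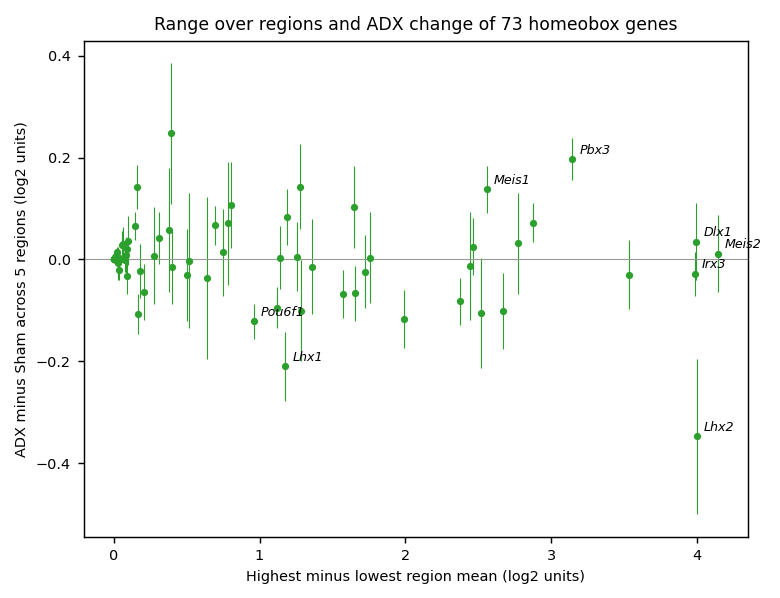
Range of region means (horizontal, log2 units) against the change between ADX and Sham over 5 regions (vertical, log2 units, with standard errors; 4 units each) for the 73 homeobox genes. No change passed the test; Pbx3 at 0.20, which changes sign without normalization, and Lhx2 at -0.35 are small beside their range over regions of 3.14 and 4.0 log2 units.

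Within single regions, 0 of 560 tests of ADX against Sham in the set passed (0.011% of all tests passed); at an unadjusted limma p under 0.05, 9 genes were counted in the frontal cortex (11.2%, against 12.3% of all probe sets), 6 in the septum (7.5%, against 10.2%), 5 in the amygdala (6.25%, against 5.46%), 4 in the hippocampus (5%, against 8.86%), 1 in the hypothalamus (1.25%, against 6.42%), 4 in the dorsal raphe (5%, against 7.44%) and 8 in the locus coeruleus (10%, against 6.01%). A test of whether the change from Sham to ADX differed between regions passed for 6 of 80 genes (7.5%, against 2.44% of all probe sets): Pbxip1, Hoxd1, Pax2, Hoxb4, Irx4 and Pou3f1. That count fell to 2 when frontal cortex Sham PM replicate 2 was left out, Hoxd1 and Pbxip1, to 1 without all ADX PM replicate 1 arrays, Pou2f2, and to 1 each without replicate 2 of ADX PM (Pbxip1), of Sham PM (Pbxip1) or of Sham AM (Hoxb4). It was 2 without ADX AM replicate 2, and 3 when any 1 of the 4 pADX replicates was left out. In no single region did any of the 6 genes pass (adjusted p at least 0.347).

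Pbxip1, a protein that binds Pbx factors and has no homeodomain, had the smallest interaction p (adjusted p = 0.00946). Its 4 ADX arrays in the dorsal raphe ran from 5.93 to 6.42 and its 4 Sham arrays from 5.14 to 5.73, a log2 difference of 0.74 (SE 0.17, adjusted p = 0.36). In the amygdala the difference was -0.60 (SE 0.25, adjusted p = 0.887) and in the frontal cortex -0.68 (SE 0.22, adjusted p = 0.347, 3 arrays against 3). The dorsal raphe groups did not overlap, and those of the amygdala and frontal cortex overlapped only slightly. Pou3f1 (interaction adjusted p = 0.0484) ran from 4.62 to 5.46 in ADX and 5.56 to 5.91 in Sham in the amygdala, a difference of -0.64 (adjusted p = 0.746). In the frontal cortex it differed by -0.61 (adjusted p = 0.363) and in the hippocampus by -0.34 (adjusted p = 0.515), without overlap in either. The difference was 0.41 in the septum (adjusted p = 0.494), 0.37 in the locus coeruleus, -0.21 in the dorsal raphe and -0.08 in the hypothalamus.

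Pax2 (interaction adjusted p = 0.0319) ran from 4.96 to 5.39 in ADX and 4.41 to 4.89 in Sham in the locus coeruleus, a difference of 0.62 (adjusted p = 0.738), and its difference in the dorsal raphe was -0.59 (adjusted p = 0.741). Irx4 (interaction adjusted p = 0.0426) differed by -0.43 in the dorsal raphe (adjusted p = 0.497), where 2 of 4 ADX and 0 of 4 Sham arrays were at the floor, and by -0.05 in the locus coeruleus, where its signal was high. Hoxd1 (interaction adjusted p = 0.0136) and Hoxb4 (interaction adjusted p = 0.0349) were at the floor in 69 and 76 of 80 arrays. Their differences in the locus coeruleus were 0.34 and -0.50, and no treatment group there had more than 3 of 4 arrays above the floor for either gene. Neither passed the limma test of ADX against Sham within that region (adjusted p = 0.74 and 0.75). Arrays at the floor show no spread, and they enter the spread that the interaction test uses.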

How the data were processed

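The deposited values, 1 linear intensity per probe set and array, were used as the authors gave them; neither labels nor file header state their scaling. Values were quantile normalized over 82 arrays because their distributions differed, raised to at least 16, the floor, and log2 transformed. Without 57 controls and with no filter, 31042 probe sets were tested; 20826 carried 1 gene symbol, 436 several and 9780 none. limma 3.58.1 in R 4.3.3 fitted 7 region means over 80 arrays with the 12 combinations of treatment, time and replicate as a fixed block, and treatment and time as additive terms over 12 units; p-values were Benjamini-Hochberg adjusted over all probe sets, threshold 0.05. Scripts were tested on simulated data. Replicate numbers are 1, or 2 where the title ends in b. Whether arrays of the same number in different regions come from the same animals was not stated. Over 108 comparisons between regions, the correlation of replicate differences ran from -0.207 to 0.216. With at most 2 arrays per group, these low values cannot decide it. Of several probe sets per gene the one with the highest mean was used. The named genes are those highest or lowest in a region, the 5 largest brainstem contrasts each way, the 5 most even, the smallest treatment p-values, and all Hox, Lhx, Otx, Isl, Satb, Six3, Six4, Six5 and Six6 genes. Members and lists were chosen with earlier results of these data known. Alternatives covered normalization, floor, filter, probe set, block, margin and left-out arrays.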

Additional observations from a re-analysis of the deposited data

Results flagged for a closer look

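The frontal cortex and hippocampus, the regions with 10 arrays, were searched for single arrays far from the rest. Of 33 sets of values, 1 gene in 1 region with a range of at least 0.5, 7 held such an array. In each it was a high one among arrays at or near the floor, so the chance rate of about 1 in 20 does not hold here. Hoxd9 was 4.71 in frontal cortex Sham PM replicate 2, with the other arrays of the region at the floor. Lhx1 was 5.10 in frontal cortex pADX PM replicate 2, with the others at 4.0 to 4.50. Otx1 was 4.79 in frontal cortex ADX PM replicate 2, with the others up to 4.11. Nkx6-1 was 4.66 in hippocampus Sham AM replicate 1, with the others up to 4.04. Hippocampus ADX PM replicate 1 stood out for 3 genes: Lhx1 at 4.67, Otx1 at 4.70 and Pax2 at 4.74.

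The change from Sham to ADX differed between regions by the interaction F test for 6 genes, with adjusted p of 0.0349 for Hoxb4, 0.0136 for Hoxd1, 0.0426 for Irx4, 0.0319 for Pax2, 0.00946 for Pbxip1 and 0.0484 for Pou3f1. Leaving out single replicates brought this count to between 1 and 6.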

How the results depend on the processing

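Most regional counts held in most settings, and the main treatment and time counts held except without normalization. The count of genes highest in a region and the interaction count varied more. The count of genes highest in a region, 5, was 3 with a floor of 32, 13 with a margin of 0.5, 1 with a margin of 2, and 3 to 6 with a replicate left out. The interaction count, 6, was 10 as deposited, 3 with a floor of 32, 2 with a pseudocount, 2 without frontal cortex Sham PM replicate 2 (a setting chosen after seeing the data), and 1 to 6 with a replicate left out. As deposited, with the median of all probe sets shifted by -0.21 between ADX and Sham, 23 genes passed for ADX against Sham (44.2% of all probe sets did), 4 for ADX against pADX (11.5%) and 18 within regions (5.77%), Pbx3 reversed to -0.0961, and Pou6f1 passed at -0.40. All 25 genes with a brainstem difference of at least 0.5 kept direction and call in 550 of 550 values. For dorsal raphe against locus coeruleus 171 of 176 values did, and for hypothalamus against telencephalon 393 of 396. With no replicate block, 43 genes differed among regions, 36 in the brainstem contrast, 15 between the brainstem regions, 30 in the hypothalamic contrast, and 5 by interaction; with a replicate block in the unit fit the treatment counts stayed at 0. Of the 36 genes of the brainstem contrast, 35 kept their sign within arrays at the common scale (not Six6). Within the other arrays 33 kept it (not Hoxb4, Meis2 and Pax6). The first set holds no hippocampus or hypothalamus and the second no frontal cortex, septum or amygdala, so they compare different forebrain regions. All 15 kept their sign between the brainstem regions and 29 of 30 between hypothalamus and hippocampus (not Dlx5). Signals near the floor limit what can be read from 12 genes never above it and 15 seldom above it.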

Other observations

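The genes most like the region-specific members in their 7 region means, chosen by Pearson correlation as a description, were mostly dim themselves. For Irx4 they were Sbp, Wnt8b and Skor1 (r = 0.999 for Skor1), of which Skor1, a transcriptional corepressor, averaged 5.89 in the locus coeruleus and 4.12 in the next region, and the others at most 4.09. For Pou4f1 they were Plin5, F2rl3 and Ehf (r from 0.996 to 0.999), all under 4.2 in the dorsal raphe. For Nkx2-1 they were Tshr, Actg2 and Lama5 (r from 0.982 to 0.990), up to 4.74. For Meis2 they were Ccnb1, Gucy1b1 and Alpk3 (r from 0.953 to 0.961), and Gucy1b1, a subunit of the nitric oxide receptor, averaged 10.20 in the septum and 10.18 in the next region.

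The 2 frontal cortex arrays without a treatment label gave 8.32 and 8.67 for Lhx2, 6.37 and 6.73 for Dlx1, 9.60 and 9.73 for Meis2, and 6.77 and 6.78 for Pou3f1. Six6, Nkx2-1 and Irx3 were at the floor in both.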
